A study of Saccharomyces cerevisiae BY4741 with 24 samples.

Results

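The genes described here are the nuclear protein-coding genes of budding yeast that the study's annotation lists under a systematic name alone, such as YER138C or YBL005W-A. They were taken by rule, as every row of the deposited tables that is annotated as protein-coding, lies outside the mitochondrial chromosome and carries a name of that form. Of 1721 genes of this kind in the annotation, 123 were in the tables, among 1042 features in all and 898 nuclear protein-coding ones. RNA was sequenced from Saccharomyces cerevisiae strain BY4741, a haploid laboratory strain, in 4 groups of 3 libraries: untreated, 1% methanol, and abscisic acid (ABA, a plant hormone) at 0.5 mM or at 2 mM, each with 1% methanol. All cultures grew for 5 h in minimal medium without tryptophan, and the 3 libraries of a group came from colonies grown on different days. The strain is a single laboratory line, and the study's list of resources names a NAB3-ABI strain for the same data, which the values used here do not settle.

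The one value per gene analysed here is the authors' mean normalised count, an average of normalised read counts over all 12 libraries. It does not separate untreated from treated cultures, it carries no spread between libraries, and the depth of single libraries is unknown, so levels are described without a test and no effect of methanol or ABA is given. The means of all 1042 features summed to 52276.8, and the lowest was 2.51. Of the genes that mark an a-type haploid, MFA1, a gene for a-factor, had a mean of 23.2, MFA2 had 29.9 and STE2, the alpha-factor receptor gene, had 19.0. BAR1 was not among the rows, nor were STE3 and the alpha-factor genes of the opposite mating type. URA3, LEU2, HIS3 and MET17, which BY4741 lacks in whole or in part, were also not among the rows. Since most annotated genes were not listed either, that says little by itself.

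A yeast systematic name encodes a position. The second letter is the chromosome, L or R the arm, the digits the order from the centromere, and W or C the strand. A letter after a hyphen marks a frame that was added after the first numbering, often because it is short or lies within or beside another. A gene keeps only this name while no function has earned it another. Many such frames are short or lie on top of better-known genes and are thought to encode no protein, and others belong to Ty elements, the retrotransposons of yeast. A Ty element carries long terminal repeats at its ends and a Gag frame, whose protein forms the particle that packs the element's RNA. It makes the protease, integrase and reverse transcriptase as a Gag-Pol fusion, when ribosomes slip forward by 1 base near the end of Gag. Its RNA can be copied into DNA and inserted at a new place, and Ty1 is the most numerous family in laboratory strains.

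By the RefSeq annotation, 74 of the 123 listed genes were Ty frames and 49 were not. The label holds only in part, since 16 of the 123 now carry a symbol in RefSeq, such as SPO24 for YPR036W-A and MPC2 for YHR162W, and 2 more, YHR020W and YDR341C, are annotated as the ligases of proline and arginine tRNA. A protein-coding entry existed in RefSeq for 109 of the 123. Another 2 rows fit the form of the name, YDR134C and YNL054W-B, but are annotated as pseudogenes and were left out.

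The Ty frames share a short sequence at the slip site, where the annotation breaks the Gag-Pol frame into a pair of exons separated by 1 base. The sequences below are shown because they carry this feature of the most abundant frames. They are 21 bases of the R64 genome centred on the skipped base, with the heptamer CTTAGGC in capitals, on the coding strand.
YER138C (Ty1, chrV:447712-447732, minus strand): cgaccttcacCTTAGGCcagg
YBL005W-B (Ty1, chrII:222625-222645, plus strand): ccttcacCTTAGGCcaggaac
YBR012W-B (Ty1, chrII:261164-261184, plus strand): ccttcatCTTAGGCcagaaac
YBL100W-B (Ty2, chrII:31218-31238, plus strand): acttagtCTTAGGCcagcaac
YGR109W-B (Ty3, chrVII:708450-708470, plus strand): agagcacgtaaggcgagttct
Of 42 Gag-Pol frames with such a gap, 40 held CTTAGGC on the coding strand within this window, among them all 38 of those in the tables, and none held it on the other strand. The other 2 were the Ty3 frames YGR109W-B and YIL082W-A, neither of which was in the tables. Central windows of 21 bases in the other 6575 nuclear protein-coding genes held the heptamer, on either strand, in 1 case (0.0152%). Across the 42 frames there were 13 distinct windows. The match is a description of the letters and does not measure slipping.

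Ty frames were far more often listed than the other systematic-name genes and reached the highest means. Of 89 annotated Ty frames 74 were in the tables (83.1%), against 49 of the other 1632 systematic-name genes (3.00%) and 775 of 4943 nuclear protein-coding genes outside the systematic-name group (15.7%). The median of the mean normalised count was 179 for the Ty frames, 10.5 for the other 49 and 15.3 for the 775. Per kb of annotated length, the medians were 70.1, 17.7 and 9.91. The lowest listed mean, 2.51, is a higher count per kb for a short gene than for a long one, which bears on these medians. Of the 100 nuclear protein-coding features with the highest mean, 58 had systematic names only, 56 of them Ty frames, and of the 100 with the highest count per kb these numbers were 40 and 28. In RNA from whole cultures, more cells that hold an RNA and more of it per cell cannot be told apart.

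**Figure D1:**
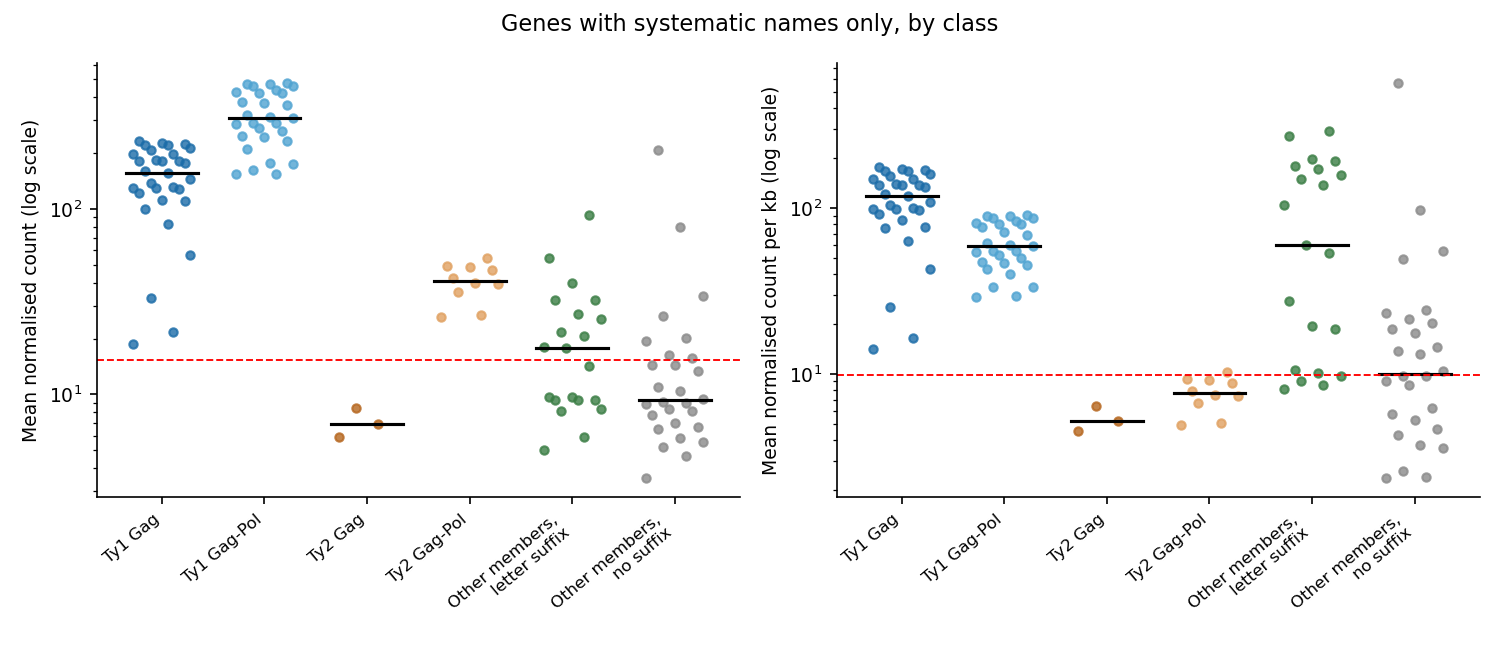
Mean normalised count (left) and the same per kb of annotated length (right), both on log axes, with 1 point per listed gene and a black bar at the median of each class. The red dashed line is the median of the 775 other listed nuclear protein-coding genes, at 15.3 (left) and 9.91 per kb (right). All frames of the Ty1 classes lie above it on both scales. All 10 Ty2 Gag-Pol frames lie above it on the left, while their median of 7.70 lies below it on the right. YLR035C-A, a Ty frame outside any annotated element, is not drawn.

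The Ty frames made up 37.7% of the summed means of the 898 listed nuclear protein-coding genes and 27.6% of those of all 1042 listed features. Unlisted genes are not in these sums, so the shares are not shares of all coding RNA. The Gag frame lies within the Gag-Pol frame, so reads there may have been counted in both. With Gag frames that lie in a listed Gag-Pol frame left out of both sums, the share of listed nuclear protein-coding genes was 30.0%. The 74 frames lay on 14 of the 16 nuclear chromosomes, in 31 Ty1 and 10 Ty2 elements and, for YLR035C-A, outside any annotated element. None of the 3 Ty3 frames or 4 Ty4 frames was listed. With the lowest mean in the tables at 2.51 and no rule for the rows given, an unlisted frame cannot be taken as silent.

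All 29 Ty1 Gag-Pol frames were in the tables, with means from 154 to 479 and a median of 309. Their coefficient of variation between frames was 33.6%. Reads that matched several sites were placed among them at random, so means of near-identical frames are not separate measures of each copy. YER138C on chromosome V had the highest mean, 479, the second highest of all nuclear protein-coding features. It was followed closely by YGR027W-B at 471.4 and YPL257W-B at 470.1. YLR157C-B had a mean of 458.2 and YML039W 457.8. YDR365W-B (439), YJR027W (425), YJR029W (423) and YOL103W-B (419.6) completed the 9 frames above 400. The first 12 systematic-name genes by mean were all Ty1 Gag-Pol frames and ended with YPR137C-B (376), YDR261C-D (372) and YLR227W-B (362).

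Another 3 frames, YDR316W-B, YML045W and YPR158C-D, lay between 309 and 322. Between 211 and 289.9 were 9 more, YMR050C, YGR038C-B, YPR158W-B, YDR098C-B, YGR161C-D, YDR210C-D, YOR142W-B, YHR214C-B and YER160C. The lowest 5 had means from 154 to 176 and were YBR012W-B, YNL284C-B, YAR009C, YMR045C and YBL005W-B. Without values of single libraries, which neighbours in this order differ beyond their spread is unknown. The order is also limited by random placement of reads. The share of windows of 150 bases, the read length, found once in the genome had a median of 2.93% over the Ty1 Gag-Pol frames. It ran from 0% to 33.5%. For YER138C it was 0%, and its windows had a median of 17 copies. What random placement contributes to the order was not tested.

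All 31 Ty1 Gag frames were listed as well, with means from 18.8 to 233 and a median of 156. The highest 7, from 207 to 233, were YGR027W-A, YJR026W, YLR157C-A, YPL257W-A, YER137C-A, YML040W and YDR365W-A. Between 156 and 198 were YLR227W-A, YAR010C, YPR137C-A, YOL103W-A, YDR261C-C, YJR028W, YLR256W-A, YDR316W-A and YPR158C-C. Between 110 and 144 were YGR161C-C, YML045W-A, YGR038C-A, YDR098C-A, YDR210C-C, YMR051C, YPR158W-A, YER159C-A and YHR214C-C. The remaining 6 were YOR142W-A (99.9), YBR012W-A (83.2), YNL054W-A (56.5), YMR046C (33.3), YNL284C-A (21.7) and YBL005W-A (18.8). The highest and the lowest Ty1 Gag frame thus differed 12.4-fold, against 3.11-fold for the Ty1 Gag-Pol frames.

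Per kb, the Ty1 Gag frames had a median of 118 and the Ty1 Gag-Pol frames 58.7. In 25 Ty1 elements whose Gag frame was at least 95% identical to a reference copy, the Gag mean was 41.0% to 54.9% of that of the Gag-Pol frame around it (median 47.6%). Gag shares 25.1% of the bases of Gag-Pol in an element such as that of YJR026W and YJR027W, so the count per kb was 1.63 to 2.19 times as high over Gag as over the whole of Gag-Pol. The means of Gag and Gag-Pol went together across 28 Ty1 elements (Pearson's r 0.953, Spearman's rho 0.959), which is a description of points that share libraries and, over Gag, may share reads.

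**Figure D2:**
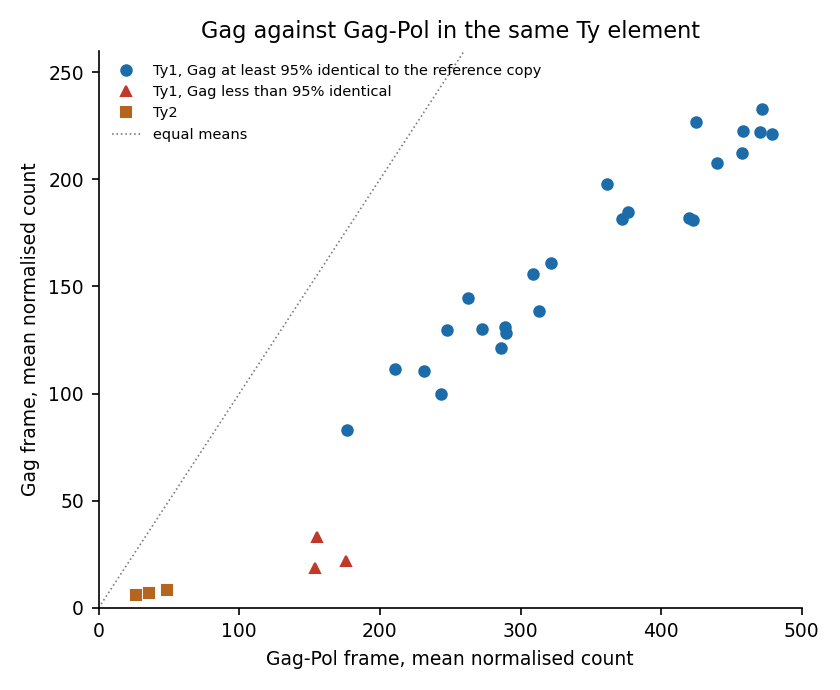
Mean normalised count of the Gag frame against that of the Gag-Pol frame around it, with 1 point per Ty element that has both in the tables. Circles are Ty1 elements with a Gag frame at least 95% identical to the reference copy, triangles the 3 less identical Ty1 elements, and squares the 3 Ty2 elements. All 31 points lie under the dotted line of equal means, and the triangles and squares lie below the band of the circles, with Gag at 12.2% to 22.1% of Gag-Pol. Gag lies within Gag-Pol, so reads counted for both would by themselves place the points under the line.

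In 3 Ty1 elements the Gag frame stood apart. YBL005W-A, YMR046C and YNL284C-A had means of 18.8, 33.3 and 21.7, which were 12.2%, 21.5% and 12.3% of the Gag-Pol frames YBL005W-B, YMR045C and YNL284C-B. Those Gag-Pol frames were at the low end of their class but well within reach of it, at 154, 155 and 176. Over these Gag frames the count per kb was 0.485, 0.854 and 0.492 times that over the whole Gag-Pol frame, so here the Gag end had the lower density. In the other 25 elements it had the higher one.

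The same 3 frames also differ in sequence. The reference copy is YGR038C-A, the Ty1 Gag frame whose identity to the others was highest at the median. The other 28 Ty1 Gag frames matched it at 98.7% or more of their bases, one of them, YHR214C-C, after leaving out an insertion. YBL005W-A matched at 86.2%, YMR046C at 86.2% and YNL284C-A at 91.5%. The 90 bases where they depart from it most are shown because they carry this difference. These are bases 991 to 1080 of each frame, with every base that differs from YGR038C-A in capitals.
YGR038C-A (chrVII:566388-566477, minus strand): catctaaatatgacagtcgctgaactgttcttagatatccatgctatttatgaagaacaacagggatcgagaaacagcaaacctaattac
YER137C-A (chrV:447945-448034, minus strand): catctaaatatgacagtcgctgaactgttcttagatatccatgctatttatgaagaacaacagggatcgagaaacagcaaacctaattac
YNL054W-A (chrXIV:520446-520535, plus strand): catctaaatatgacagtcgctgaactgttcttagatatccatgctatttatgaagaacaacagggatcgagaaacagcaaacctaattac
YBL005W-A (chrII:222320-222409, plus strand): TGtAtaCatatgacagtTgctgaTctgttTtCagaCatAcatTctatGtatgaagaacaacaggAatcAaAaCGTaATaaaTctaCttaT
YMR046C (chrXIII:361548-361637, minus strand): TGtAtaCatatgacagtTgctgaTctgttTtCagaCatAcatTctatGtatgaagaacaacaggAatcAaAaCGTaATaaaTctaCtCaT
YNL284C-A (chrXIV:101153-101242, minus strand): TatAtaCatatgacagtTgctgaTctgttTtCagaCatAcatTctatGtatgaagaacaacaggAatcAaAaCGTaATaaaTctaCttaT
In this stretch YBL005W-A differed from the reference copy at 23 bases, YMR046C at 24 and YNL284C-A at 22, with all 3 differing at the same 22 positions, while YER137C-A and YNL054W-A differed at 0. Over the whole frame of 1323 bases, YBL005W-A differed at 184 positions and YMR046C at 186. YNL284C-A was mixed along its length, with 16 differences in its first 500 bases and 101 in the rest, where YBL005W-A had 75 and 109. YDR170W-A, a Gag frame outside any annotated element, was 98.2% identical to YBL005W-A and was not in the tables.

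The authors' aligner placed a read that matched several sites at 1 of them at random, so how many other sites a frame resembles bears on its count. Of the 31 Ty1 Gag frames, 19 had no window of 150 bases, the read length, that occurs once in the genome. Their means ran from 99.9 to 233 with a median of 185. The 8 frames with up to 40% of such windows had means from 83.2 to 182 (median 135). The 4 with more were YNL054W-A, YBL005W-A, YMR046C and YNL284C-A, at 49.4%, 42.2%, 57.2% and 79.6%, and had the 4 lowest means. Over all 31 frames, the mean and the share of windows found once had a Spearman's rho of -0.623, and over the 28 frames alike to the reference copy -0.468. What random placement contributes to this was not tested.

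**Figure D3:**
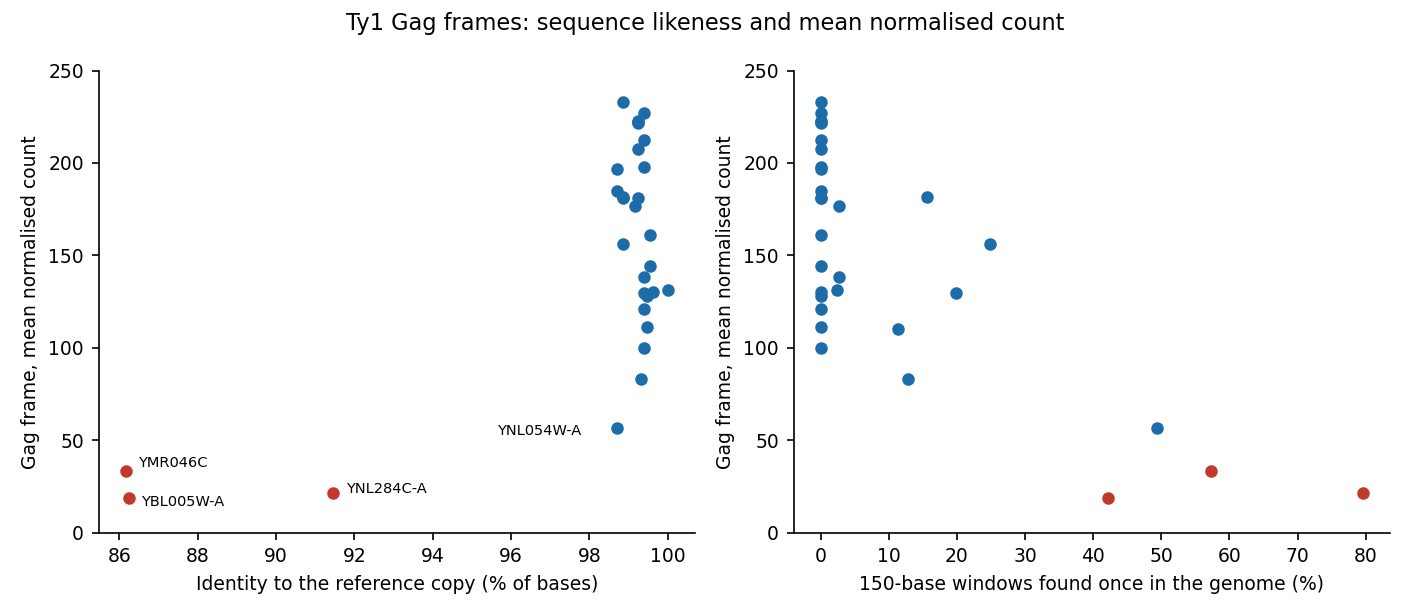
Mean normalised count of Ty1 Gag frames against their identity to the reference copy YGR038C-A (left, 30 frames of equal length) and against the share of 150-base windows found once in the genome (right, 31 frames). Red points are the 3 frames under 95% identity, which have means of 18.8 to 33.3. The fourth lowest frame, YNL054W-A at 56.5, is 98.7% identical and has 49.4% of its windows found once.

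Listed frames with exactly the same sequence had close means. Reads that match identical copies were placed among them at random, so these means are not separate measures of each copy. Only listed frames are compared, and the Ty2 Gag frame YFL002W-B (8.41) is 100% identical to YGR161W-A, which was not listed. The tables held 7 sets of identical frames, 17 frames in all, and within a set the highest mean was 1.02 to 1.21 times the lowest. YLR157C-A, YPL257W-A, YER137C-A and YDR365W-A, 4 identical Gag frames on 4 chromosomes, had means of 223, 222, 221 and 207. YPR158W-A and YOR142W-A, another identical pair, had 121 and 99.9. The 6 sets of Ty1 Gag frames are also alike among themselves, each at 98.7% or more to the reference copy. Across the 28 alike frames the highest mean was 4.12 times the lowest.

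YLR256W-A (177) shares 62 bases on the same strand with HAP1 (34.6), a gene for a transcription factor of the response to haem. YNL054W-A had the lowest mean of the alike frames, 56.5. The frame around it, YNL054W-B, is annotated as a pseudogene and had a mean of 172. YAR009C (162) is a shortened Gag-Pol frame that does not contain its neighbour YAR010C (197), the one element of 32 where Gag had the higher mean of the pair. YLR035C-A is a fragment of 3468 bases on chromosome XII with a mean of 107, and 99.7% of its bases match the Gag-Pol frame YER160C.

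Ty2 frames had much lower means. All 10 Ty2 Gag-Pol frames were listed, from 26.3 to 54.3 with a median of 40.9, and none reached the lowest Ty1 Gag-Pol frame at 154. The order was YOR343W-B (54.3), YGR161W-B (49.4), YFL002W-A (48.5), YLR410W-B (46.8), YCL019W (42.2), YDR210W-B (39.6), YDR034C-D (39.3), YOR192C-B (35.6), YDR261W-B (26.8) and YBL100W-B (26.3). YGR161W-B and YFL002W-A are identical in sequence. Per kb the median was 7.70, which is below the 9.91 of other listed genes. Ty2 Gag frames were 67.3% to 67.7% identical to the Ty1 reference copy and the Pol parts 78.7% to 79.6%.

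Of the 10 Ty2 Gag frames 3 were listed, YFL002W-B (8.41), YOR192C-A (6.89) and YDR261W-A (5.93). They stood at 17.3% to 22.1% of the Gag-Pol frames around them, and the count per kb over Gag was 0.700 to 0.890 times that over Gag-Pol. This ratio was below 1 in all 3, as in the 3 divergent Ty1 elements, and the 7 unlisted Ty2 Gag frames have no value.

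A feature of position that the rule did not use is the distance to tRNA genes. Ty1 is known to insert next to genes transcribed by RNA polymerase III, chiefly those of tRNAs. Of the 31 Ty1 elements with a listed frame, 24 (77.4%) had a tRNA gene within 1000 bases of the element, at a median distance of 192 bases, and of the 10 Ty2 elements 7 did (median 265). Of the 4943 other nuclear protein-coding genes in the annotation, 322 (6.51%) lay that close, with a median distance of 16942 bases. Among the 49 systematic-name genes that are not Ty frames it was 2 (4.08%). The farthest Ty1 element was YHRCTy1-1, which holds YHR214C-B and YHR214C-C, 67831 bases from a tRNA gene. Elements without a listed frame were also close, the Ty3 elements YGRWTy3-1 and YILWTy3-1 at 15 and 17 bases. The Ty4 elements YHLWTy4-1 and YJLWTy4-1 lay at 167 and 159 bases.

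Names with a letter suffix were listed more often than names without one. Their median count per kb was also higher, though not within the Ty frames. Of 530 annotated names with a suffix 79 were in the tables (14.9%), and of 1191 without one 44 were (3.69%). The median count per kb was 62.9 with a suffix and 20.8 without. Most of the gap in the share listed went with Ty frames, of which 58 of 70 with a suffix (82.9%) and 16 of 19 without (84.2%) were listed, so within the Ty frames the shares were close. Among the others the shares were 21 of 460 (4.57%) and 28 of 1172 (2.39%).

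Among genes that are not Ty frames, the listed genes with a suffix were also short. Their median length was 267 bases and their median count per kb 60.004, against 1188.5 bases and 10.0 per kb for those without. The lowest listed mean was 2.51, which for a short gene is a higher count per kb than for a long one. How far the listing bears on the counts per kb of listed short genes was not tested. On the scale of the mean count, which does not correct for length, the medians were closer, 17.8 and 9.29. Among Ty frames the direction was the other way, with a median count per kb of 65.8 with a suffix and 80.5 without. For Ty1 Gag frames the medians were 109 with and 143 without a suffix, and for Ty1 Gag-Pol frames 56.8 and 59.5.

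The 12 systematic-name genes with the highest count per kb were 5 Ty1 Gag frames (YGR027W-A, YJR026W, YLR157C-A, YPL257W-A and YER137C-A, from 167 to 176) and 7 others. The highest of all was YGL088W, at 568 per kb, the second highest among all nuclear protein-coding features. It was followed by YBR191W-A (289), YDR524C-B (271), YGL007C-A (198), YLR154W-F (191), SPO24 (YPR036W-A, 178) and YER138W-A (172). Each of the 7 shares some or all of its bases with another annotated feature or, for YER138W-A, with a long terminal repeat. The part shared was 29.6% of SPO24, 59.0% of YGL088W and 100% of YBR191W-A. YGL007C-A and YLR154W-F share bases on the opposite strand only.

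YGL088W lies on chromosome VII on the plus strand and runs into snR10, an H/ACA small nucleolar RNA that takes part in the processing of ribosomal RNA. The mean was 207.8 for YGL088W and 207.9 for snR10, and the 216 bases they share are 59.0% of YGL088W. The join is shown because most of the frame belongs to both genes. These are bases 121 to 180 of the frame, with the first bases of snR10 in capitals.
YGL088W (chrVII:345956-346015, plus strand): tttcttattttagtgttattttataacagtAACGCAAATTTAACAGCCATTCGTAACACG
Reads from the shared bases cannot be assigned to either gene, and no value of single bases was analysed here.

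Many of the 49 genes that are not Ty frames shared bases with another feature. At least 1 base was shared with another annotated feature by 40 of the 49 (81.6%), against 482 of the 775 other listed nuclear protein-coding genes (62.2%). A single feature covered at least 50% of the gene in 23 of the 49 (46.9%) and in 126 of the 775 (16.3%), and some overlaps were short, such as the 1 base that YMR182W-A shares with snR83. Outside this annotation, YDR366C and YJR030C also share bases with a Ty1 element. On the same strand it was 30 genes and on the opposite strand 25. A partner that is protein-coding was found for 24, on the same strand for 16 and on the opposite strand for 13. With Ty frames, where Gag and Gag-Pol overlap by construction, 111 of the 123 (90.2%) overlapped something. The sources used here do not give whether the authors' counting used strand.

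The partners on the same strand were often better-known genes with higher means. Of the 49 genes, 20 had a same-strand partner in the tables, and in 17 of them the partner had the higher mean. In 10 cases the gene lay whole within the partner, and the partner's mean was higher in all 10. Where reads are counted for both, a feature that holds the whole gene cannot have the lower mean. The direction in these 10 cases is therefore no separate result. YDR154C (34.1) lay within CPR1 (38.2), the gene for a cyclophilin, and YOR248W (26.6) within SRL1 (43.3), which encodes a cell wall mannoprotein. YCR024C-B (39.7) lay within PMP1 (73.5), the gene for a small regulator of the plasma membrane proton pump. YMR173W-A (9.67) lay within DDR48 (10.97), a stress-induced gene, and YLR342W-A (9.28) within GAS2 (10.6). YBR191W-A (21.7), a frame of 75 bases, lay within RPL21A (48.4), a gene for a ribosomal protein of the large subunit.

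The other 4 of the 10 were nested in transcripts of other kinds or in each other. YDR524C-B (54.4) lay within Unit87 (195), an antisense transcript of the annotation, and YPR053C (6.63) within Unit396 (23.3). YLR154C-G (20.7) lay within the ribosomal RNA feature RDN37-2 (486). YPR170W-B (4.99) lay within YPR170W-A (8.18). Reads of a nested gene and its partner cannot be told apart.

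**Figure D4:**
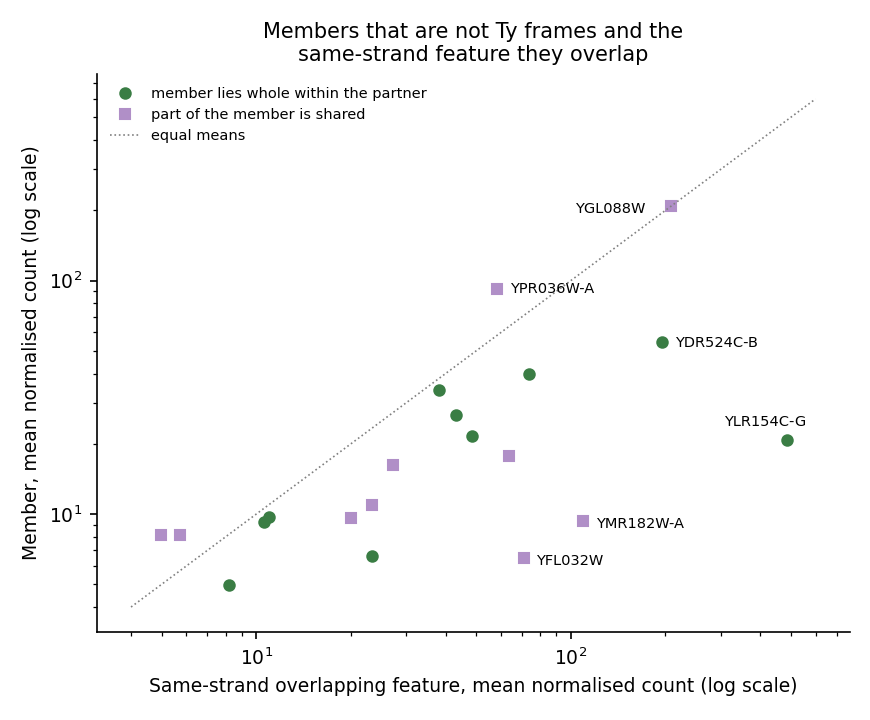
Mean normalised count of 20 systematic-name genes that are not Ty frames against that of the listed same-strand feature with the highest mean that they overlap, both on log axes. Circles are the 10 genes that lie whole within the partner and squares those that share part of their length. Of the 20 points, 17 lie under the dotted line of equal means. For the circles the nesting alone would place them there if reads were counted for both. YGL088W (207.8 against 207.9 for snR10) lies almost on it.

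The partners on the opposite strand were rarely listed, as were annotated genes in general. Of 13 protein-coding genes opposite to these members, 0 were in the tables. The listed share was 15.7% of nuclear protein-coding genes outside the systematic-name group. It was 3.00% of systematic-name genes that are not Ty frames. For as few as 13 genes, 0 is not far from these shares. Of these 13, 5 cover the whole of 1 or more members, and 3 of the 5, EAF5, MAK3 and YPR170C, have the same coordinates as YEL018C-A (9.31), YPR050C (10.95) and YPR170W-A (8.18). In these 3 pairs the gene on the other strand was not listed, and what the use of strand in the counting contributes was not tested. Of 35 opposite-strand features of any kind 5 were listed, and of 41 same-strand features 22 were, some of which may share the reads of the member. YGL007C-A, for example, is wholly opposite to BRP1, which was not listed, and had a mean of 25.3. YLR154W-E (32.4) and YLR154W-F (27.0) lie opposite to RDN37-1 (492), the precursor of ribosomal RNA. The libraries had been depleted of ribosomal RNA, and the share of reads left from it was not measured here.

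Several of the 49 genes have a product that is now known or annotated. YPR036W-A, now SPO24, a gene named for sporulation, had a mean of 92.4, the highest of the 49 after YGL088W, and it shares 154 bases with a cryptic unstable transcript of mean 58.4. YNL190W, of unknown function, had 79.9. YMR122W-A, now NCW1, had 32.4 and YLR413W, now INA1, 20.2. YHR020W and YDR341C, the tRNA ligase genes, had 19.5 and 13.3, and YHR162W, now MPC2, a subunit of the mitochondrial pyruvate carrier, had 14.4. YLR063W, now BMT6, a methyltransferase of 25S rRNA, had 14.3 and YPL225W, now CHP1, a chaperone of translation elongation factor Tef1, had 9.08.

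None of the 5 genes with the lowest means was a Ty frame. YJR008W, now MHO1, had 3.56, and it is covered over 88.1% of its length by SUT637 on the opposite strand. YKL100C, now YPF1, an aspartic endopeptidase gene, had 4.66, and YPR170W-B had 4.99. YDR366C, now MOR1, which shares 184 bases with the end of a Ty1 element, had 5.23 and YGR026W had 5.56. All 5 were below the 11.1 that is the lowest mean of the shortest table, and the number of reads behind them is unknown.

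Which tables listed a gene followed its mean. The 5 tables held 1042, 698, 1042, 840 and 1042 rows, with the same mean for a feature in each. Each table held exactly the features at or above its lowest mean, 2.51, 11.1, 2.51, 7.62 and 2.51. For the tables of 1042 rows, which list every feature found in any of them, that is so by definition. Of the 123 systematic-name genes 94 were in all 5 tables, 17 in 4 and 12 in 3. Of the 74 Ty frames 71 were in all 5, and the 3 others were the Ty2 Gag frames. Of the 49 other genes 23 were in all 5.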

How the data were processed

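RNA depleted of ribosomal RNA was sequenced as paired reads of 150 bases. The labels list 24 read files, forward and reverse, of 12 libraries. Adapters were removed by the authors with Flexbar 3.4.0, duplicates collapsed with pyCRAC 1.4.6, and pairs aligned to R64-1-1 with Novoalign 2.04, placing reads with several matches at random, before reads per feature were counted. That splits the reads of near-identical Ty copies among them. The authors then ran DESeq2 and deposited 5 tables. The mean normalised count, a signal value deposited by the authors, is the average of size-factor-scaled counts across the 12 libraries. Depth per library is unknown.

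The tables also hold the authors' own comparisons between groups (log2 fold changes, their standard errors, test statistics and p-values). None of these was used, so no treatment effect is given and no test was run. The sources used here do not give how the rows were selected.

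Positions, exon lengths and overlaps (at least 1 shared base) come from the deposited annotation. All 6664 of its 6664 nuclear protein-coding features begin with ATG in the RefSeq R64 genome, and 0 features run past a chromosome end. Ty elements, products, symbols and sequences are from RefSeq. Identity between frames is over bases, from global alignments (edlib 1.3.9.post1), since protein sequences were not used here. Alike means at least 95%. The steps used Python 3.11.15, numpy 2.4.6, scipy 1.17.1 and matplotlib 3.10.9 and were tested on simulated intervals and sequences. Named are the 12 genes with the highest mean, the 12 with the highest count per kb, the 5 with the lowest mean, every listed Ty frame and the highest overlapping feature of each. The other genes named were chosen after their values were seen, as were the division of Gag at base 500, the 95% limit and the distance of 1000 bases to a tRNA gene. The members and lists were chosen with earlier results of these data known.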

Additional observations from a re-analysis of the deposited data

How the results depend on the processing

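The share of annotated systematic-name genes in the tables was 7.15%. It was 5.46% with rows of all tables only and 5.58% with a mean of at least 10. The median mean normalised count was 3.55 times that of other nuclear protein-coding genes. This became 5.40 with a mean of at least 10 and 1.03 among genes that overlap no other feature. It reversed to 0.683 with Ty frames left out, a setting chosen after seeing the data. The ratio per kb was 5.04, and 1.36 without overlaps and 1.78 without Ty frames. The ratio per kb of names with to names without a suffix was 3.03, and 5.98 without Ty frames, where the listed genes with a suffix are short. The share of listed genes that overlap a feature was 90.2%, 44.7% if at least 50% of the gene must be covered and 76.4% with protein-coding partners only. The other settings (genomic span, a minimum length, a geometric mean, and those above where not named) moved these ratios and shares by less than 1.5 times. No paired analysis was possible because only means over all libraries were used, and for the same reason no library could be left out.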
